A study of Mus musculus with 4 samples.

Results

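Binding near 10 genes that tetrameric p53 is known to switch on for growth arrest and for its own feedback control was examined in chromatin immunoprecipitation lists from thymus. They were Cdkn1a, Mdm2, Ccng1, Btg2, Gadd45a, Ppm1d, Phlda3, Zmat3, Plk2 and Eda2r, chosen by name as established p53 targets, 10 of the 21887 protein-coding genes that RefSeq places on the numbered and sex chromosomes. The tissue was whole thymus of 4-week-old mice carrying the germline p53 AD/AD genotype, in which p53 forms dimers. The study held 2 p53 libraries and 1 input library read at 50 nt, and 1 PPAR-alpha library read at 75 nt. Every library carried the AD/AD genotype, so no comparison with tetrameric p53 could be made here. The labels do not say whether the p53 libraries came from separate mice, so their differences may be technical. PPAR-alpha had no replicate, and its antibody and read length changed together.

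p53 is a transcription factor that works as a tetramer on pairs of short palindromic elements called half-sites. Its arrest program blocks cyclin-dependent kinases, and its feedback program returns p53 to a low level through the ubiquitin ligase Mdm2 and the phosphatase Ppm1d. In thymocytes p53 is best known for the response to DNA breaks and for suppressing lymphoma. PPAR-alpha is a nuclear receptor that switches on fatty acid oxidation.

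A summit is the base of highest read pile-up in a called peak, and each summit carried the authors' score, read here as −log10 of a p- or q-value. There were 3608 summits in p53 replicate 1, 4767 in replicate 2 and 4070 in the PPAR-alpha list. Read depth is unknown from these lists, and the number called is the only sign of it. Positions are those of the lists counted from 1, and genes, starts and sequences are from RefSeq on the mouse build GRCm38. All 15 thymocyte marker genes, among them Cd4, Cd8a, Rag1 and Ptcra, had a summit inside or within 20 kb in each list. Of 5 thymic epithelium markers 0, 1 and 0 had such a summit in replicates 1 and 2 of p53 and in PPAR-alpha, and of 5 B cell markers 2, 1 and 2 did. Of 5 myeloid markers 1, 1 and 2 did. Of all protein-coding genes 20.8%, 25.7% and 20.4% had such a summit in these lists. The epithelium, B cell and myeloid counts, out of 5 genes each, are too small to set apart from these shares. Whole thymus was used, so strong binding in few cells and weak binding in many cannot be told apart.

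How many of the arrest and feedback genes lay near dimeric p53? A summit inside the gene or within 20 kb of either end was found for 2 of 10 in p53 replicate 1 (Btg2 and Gadd45a), where 20.8% of all protein-coding genes had one. In p53 replicate 2 it was found for 3 of 10, Cdkn1a, Btg2 and Gadd45a, beside 25.7% of all genes. In PPAR-alpha it was found for 2 of 10, Cdkn1a and Btg2, beside 20.4%. These shares lie near those of genes in general. When each summit counted for its nearest coding gene alone, the members' counts stayed at 2, 3 and 2, beside 12.1%, 15.2% and 12.2% of all genes. Btg2 and Gadd45a had a summit in each p53 replicate, as did 14.4% of all genes, and Btg2 alone had one in all 3 lists, as did 9.88%. Mdm2, Ccng1, Ppm1d, Phlda3, Zmat3, Plk2 and Eda2r had none in any list, as did 64.0% of all genes. The median length of the members was 8251 bp against 17169 bp over all genes. Mdm2, Ppm1d, Zmat3 and Eda2r, all without a summit, were longer than 17169 bp. Ccng1, Phlda3 and Plk2, also without one, were shorter, as were Cdkn1a, Btg2 and Gadd45a, which had one. The part of gene length was not tested.

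**Figure D1:**
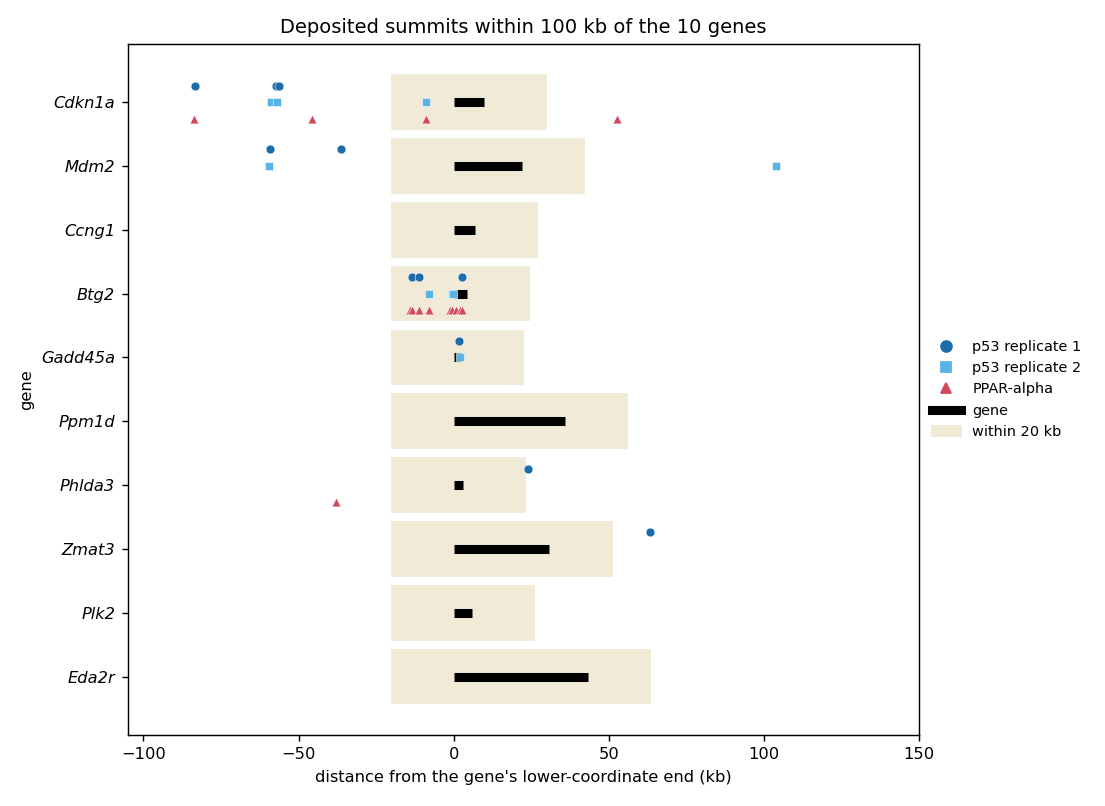
Deposited summits around the 10 genes, each drawn from its lower-coordinate end in kb, with the gene as a black bar and the stretch within 20 kb shaded. Circles are p53 replicate 1, squares p53 replicate 2 and triangles PPAR-alpha. Symbols fall inside the shading for Cdkn1a, Btg2 and Gadd45a, and 9 of the 10 PPAR-alpha symbols inside it belong to Btg2.

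Summits at these genes had low scores in both p53 lists, as most summits of those lists did. All 9 p53 summits within 20 kb of a member scored under 5, from 2.18 to 4.33. Such scores were common, since 71.3% of the summits of p53 replicate 1 and 73.7% of those of replicate 2 scored under 5. The median at members was 2.74 in replicate 1 against 3.99 for the whole list, and 3.62 in replicate 2, equal to that of its list. The 10 PPAR-alpha summits at members scored from 2.11 to 11.5, with a median of 5.30 against 4.70 for the whole list. Only 1 scored 10 or more, and it lay beyond the 3′ end of Btg2.

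The effectors of arrest come first. Cdkn1a encodes p21, the inhibitor of cyclin-dependent kinases through which p53 stops the cell cycle, and lies at 29090979 to 29100722 of chromosome 17. The gene table gives it 2 starts, 2790 bp apart. A half-site here was an exact match to RRRCWWGYYY, with R for A or G, W for A or T and Y for C or T. The upstream start is preceded by a pair of such matches separated by 12 bases, the second of which ends 2832 bp before the downstream start. The letters tgacatgttc, directly after the second match, miss the pattern at their first base and stay in lower case. In mouse and human a distal element in this region is the classical p53 site of the gene. Which of these letters form that element was not examined. The stretch is printed because it holds these p53 letters upstream of the best known p53 target, with the half-sites in capitals.
Cdkn1a, chr17:29090881-29090962, plus strand: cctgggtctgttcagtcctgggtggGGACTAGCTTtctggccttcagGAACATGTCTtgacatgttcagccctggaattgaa

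No list had a summit at that pair. The nearest lay 56242 bp away in p53 replicate 1, 8749 bp in p53 replicate 2 and 8736 bp in PPAR-alpha. The last 2 were at one place upstream of the gene. The p53 replicate 2 summit stood at position 29082157 with a score of 3.62, at or above 62.6% of that list. The PPAR-alpha summit stood 13 bp from it, at 29082170, with a score of 6.55, at or above 68.9% of its list. They lay 8822 and 8809 bp before the upstream start of Cdkn1a. The nearest gene of any kind was the long noncoding RNA Trp53cor1, known as lincRNA-p21 and transcribed in mouse cells under p53 control. Its nearer boundary was 3031 and 3044 bp away. Trp53cor1 was singled out after its distance was seen. In p53 replicate 1 nothing was called there: its nearest summit to Cdkn1a was at 29034664, 56315 bp away inside the splicing factor gene Srsf3, with a score of 1.68. The Cdkn1a summit thus came from 1 of the p53 libraries and from PPAR-alpha.

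Btg2 carried most of the summits. It encodes an antiproliferative protein that joins the CCR4-NOT deadenylase, and lies on the minus strand at 134074865 to 134079155 of chromosome 1. Of the 19 summits within 20 kb of any member, 15 were at Btg2, spread over 16991 bp from inside the gene to beyond its 3′ end. PPAR-alpha had 9 of them, and 0.0503% of all protein-coding genes, or 11, had as many PPAR-alpha summits. The p53 replicates had 3 each, and 1.61% and 2.65% of all protein-coding genes had as many in replicates 1 and 2. No summit lay within the 300 bases around the Btg2 start, which are printed to show where the run of summits is absent. They hold no exact half-site match and 3 copies of the GC box letters GGGCGG counting both strands.
Btg2, chr1:134079106-134079405, minus strand: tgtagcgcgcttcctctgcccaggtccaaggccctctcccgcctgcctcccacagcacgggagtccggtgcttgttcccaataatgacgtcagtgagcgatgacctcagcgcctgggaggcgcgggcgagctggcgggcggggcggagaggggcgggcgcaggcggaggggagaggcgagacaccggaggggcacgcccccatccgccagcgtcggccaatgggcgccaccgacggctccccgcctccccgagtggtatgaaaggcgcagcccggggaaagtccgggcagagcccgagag

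Inside Btg2, p53 replicate 1 had a summit at 134077667, 1488 bp after the start, with a score of 2.18. PPAR-alpha had 3 inside the gene, at 134077704, 134076944 and 134075568, with scores of 6.55, 3.06 and 4.70. p53 replicate 2 had none inside the gene. Its nearest were just past the 3′ end, 167 and 626 bp away at 134074698 and 134074239, with scores of 2.97 and 3.62. PPAR-alpha had 2 summits there as well, 563 and 1307 bp past the end, with scores of 2.11 and 3.58. p53 replicate 1 was thus called inside the gene, p53 replicate 2 just past its 3′ end, and PPAR-alpha at both.

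Further downstream the summits fell at 3 places. At the nearest, p53 replicate 2 (134066923, score 3.62) and PPAR-alpha (134066917, score 5.30) lay 6 bp apart. Next, p53 replicate 1 (134063804, 3.99) and PPAR-alpha (134063728, 11.5) lay 76 bp apart, and this PPAR-alpha score was at or above 87.6% of its list. The farthest place had p53 replicate 1 (134061311, 2.74) and PPAR-alpha (134061309, 5.91) 2 bp apart, and a further PPAR-alpha summit at 134060713 (5.30) inside the long noncoding RNA Gm19497. At this last place the protein-coding gene Fmod, for the matrix protein fibromodulin, was nearer than Btg2, at 13031 bp against 13554 bp for the p53 summit. Each downstream place held PPAR-alpha and a single p53 replicate.

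**Figure D2:**
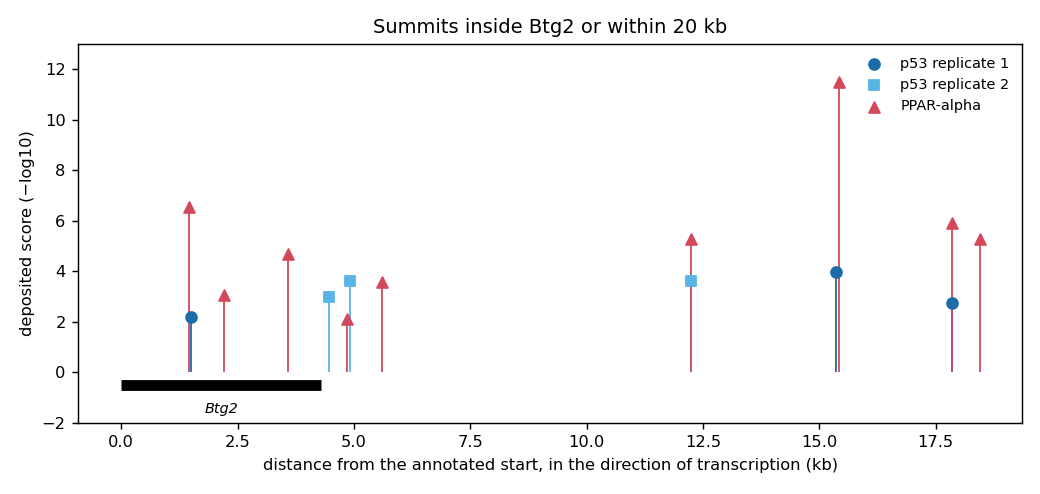
Score of each summit inside Btg2 or within 20 kb (vertical axis, −log10) against its distance from the annotated start in the direction of transcription (horizontal axis, kb), with the gene as a black bar. The 9 PPAR-alpha triangles run from 1451 to 18442 bp, and p53 replicate 1 circles and replicate 2 squares stand beside different triangles.

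The p53 replicates did not share a summit at Btg2, although both shared summits with PPAR-alpha. All 3 summits of p53 replicate 1 and 2 of the 3 of p53 replicate 2 had a PPAR-alpha summit within 100 bp. Seen from PPAR-alpha, 5 of its 9 had a p53 summit within 100 bp. Between the p53 replicates the closest approach was 2969 bp. PPAR-alpha summits were dense here, 4 of the 9 having at least 5 others within 10 kb, and the part of this density in the sharing was not tested.

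Gadd45a was the reverse case, with p53 summits and no PPAR-alpha summit. It encodes a stress protein that binds PCNA and p21 and slows the cell cycle, and lies on the minus strand at 67035096 to 67037407 of chromosome 6. p53 replicate 1 had a summit inside it at 67036777, 630 bp after the start, with a score of 2.74. p53 replicate 2 had a summit at 67037076, 331 bp after the start, with a score of 4.33. These are 299 bp apart, so they counted as separate summits at 100 bp. The nearest PPAR-alpha summit lay 147466 bp away. The start of the long noncoding RNA E230016M11Rik, on the plus strand and overlapping Gadd45a, lies 808 bp inside the gene, and the p53 summits were 178 and 477 bp from it. The start of Gadd45a, the start of E230016M11Rik and the interior of Gadd45a can therefore not be told apart as the place of these summits. In human cells the known p53 element of GADD45A is in the third intron, and exon positions were not used here. The 300 bases around the start are printed because they are the promoter next to the only p53 summits found inside a member in both replicates. They hold 1 half-site, in capitals, 31 to 40 bases before the start, and the nearest p53 summit lay 282 bp outside the printed window.
Gadd45a, chr6:67037358-67037657, minus strand: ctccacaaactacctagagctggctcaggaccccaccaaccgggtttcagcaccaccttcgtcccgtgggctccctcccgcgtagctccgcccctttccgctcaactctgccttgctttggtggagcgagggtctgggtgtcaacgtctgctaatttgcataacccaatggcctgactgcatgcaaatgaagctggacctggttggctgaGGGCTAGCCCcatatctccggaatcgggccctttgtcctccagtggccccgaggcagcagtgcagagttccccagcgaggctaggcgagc

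Plk2, a polo-like kinase that acts at the centrosome, and Ccng1, cyclin G1, which brings the phosphatase PP2A to Mdm2, lacked summits within 20 kb. Plk2 is on the plus strand of chromosome 13 at 110395044 to 110400844, and Ccng1 on the minus strand of chromosome 11 at 40748552 to 40755309. The nearest summits to Plk2 were 491306, 490824 and 491916 bp away in replicates 1 and 2 of p53 and in PPAR-alpha. All were inside the phosphodiesterase gene Pde4d and within 1092 bp of each other. Of all protein-coding genes 29.0%, 25.5% and 27.8% were as far or farther from a summit of these lists. Ccng1 was the most isolated autosomal member. Its nearest p53 summits lay 2773413 and 2773406 bp away, 7 bp apart and 27 and 34 bp from the gene Ccnjl, with scores of 11.6 and 5.08. Only 6.97% and 6.12% of all protein-coding genes were as far or farther from a summit of p53 replicates 1 and 2. The stretch free of any summit around Ccng1 spanned 8.74 Mb and held 19 protein-coding genes in full.

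Among the feedback genes, Mdm2 had no summit within 20 kb. It encodes the ubiquitin ligase that marks p53 for degradation, and lies on the minus strand at 117688875 to 117710758 of chromosome 10. Its known p53 elements are in the first intron, and no summit of any list lay inside the gene. The nearest summits were in or beside Cpm, a carboxypeptidase gene beyond its 3′ end. They stood 36450 bp from Mdm2 in p53 replicate 1 (score 2.74) and 59535 bp in p53 replicate 2 (score 3.62), the latter 160 bp from the start of Cpm. The nearest PPAR-alpha summit lay 207849 bp away. In p53 replicate 1 the distance of Mdm2 was not unusual, as 73.6% of all genes were as far or farther.

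Ppm1d, also known as Wip1, encodes a phosphatase that removes activating phosphates from p53 and its kinases, and lies on the plus strand of chromosome 11 at 85311254 to 85347071. Its nearest summits were 910535 bp away in p53 replicate 1, at the start of the Integrator gene Ints2, and 431201 and 431294 bp away in p53 replicate 2 and PPAR-alpha. The last 2 lay 93 bp apart inside Pigw and beside its neighbour Myo19. Of all protein-coding genes 19.4%, 27.3% and 30.1% were as far or farther from a summit of p53 replicate 1, p53 replicate 2 and PPAR-alpha. The summit-free stretch around Ppm1d spanned 1.38 Mb with 11 protein-coding genes. Ppm1d, Mdm2 and Ccng1 each hold 1 half-site in the 300 bases around their start, printed here with 25 bases on either side because no summit of any list lay near these letters.
Mdm2, chr10:117710910-117710969, minus strand: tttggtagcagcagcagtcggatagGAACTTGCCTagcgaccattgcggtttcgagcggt
Ccng1, chr11:40755437-40755496, minus strand: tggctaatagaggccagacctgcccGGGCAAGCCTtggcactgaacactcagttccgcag
Ppm1d, chr11:85311097-85311156, plus strand: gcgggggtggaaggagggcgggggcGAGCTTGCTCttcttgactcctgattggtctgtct

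An exact half-site match was found in promoters of 5 of the 9 members with a promoter sequence, Cdkn1a, Mdm2, Ccng1, Gadd45a and Ppm1d. Near matches were not counted, so a promoter without a match may still hold a p53 element. Of all 32851 promoter sequences 8.36% held a match, and of those of protein-coding genes 7.37%. These shares count promoters, while the members were counted as genes. A pair of half-sites with 0 to 13 bases between them was found in Cdkn1a alone among the members, and in 0.0731% of all promoters. A perfect direct repeat of the nuclear receptor letters AGGTCA with 1 base between the copies, the kind of element that PPAR-alpha binds with its partner RXR, was in no member's promoter and in 0.0396% of all. The p53 half-site is a palindromic pattern, so each match counts for both strands, and the other letters were searched on both strands. The members were selected as p53 targets, so their matches are a description and not independent of that choice. No summit of any list lay inside the promoter sequence of a member.

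Phlda3, which holds the kinase Akt off the membrane, fell just outside the 20 kb limit. The gene is on the plus strand of chromosome 1 at 135766085 to 135769134. Its nearest summit in p53 replicate 1 was 20895 bp away inside the troponin gene Tnni1, with the lowest score of that list, 1.68. In PPAR-alpha it was 37820 bp away inside Csrp1, with a score of 2.57, and in p53 replicate 2 it was 362548 bp away. The member summit just inside the limit, in PPAR-alpha at Btg2, was 14152 bp from its gene.

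Zmat3, an RNA-binding zinc finger gene also known as Wig1, lies at 32334792 to 32365665 of chromosome 3 and had its nearest p53 replicate 1 summit 32320 bp away. That summit lay 920 bp from the start of Pik3ca, which encodes a lipid kinase subunit, with a score of 3.99. In p53 replicate 2 the nearest was 145223 bp away at Zfp639 and in PPAR-alpha 371562 bp away at Ndufb5. For Zmat3, Phlda3 and Mdm2 the nearest p53 summits therefore lay in or beside other genes.

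Eda2r, a receptor of the tumour necrosis factor family that binds ectodysplasin A2, is the only member on chromosome X, on the minus strand at 97333837 to 97377234. Its nearest summits lay 14993702, 9878819 and 2204901 bp away in replicates 1 and 2 of p53 and in PPAR-alpha. Chromosome X held 6, 9 and 16 summits in these lists, so the distances of Eda2r move with a chromosome that had few summits of any kind, and the part of this was not tested.

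**Figure D3:**
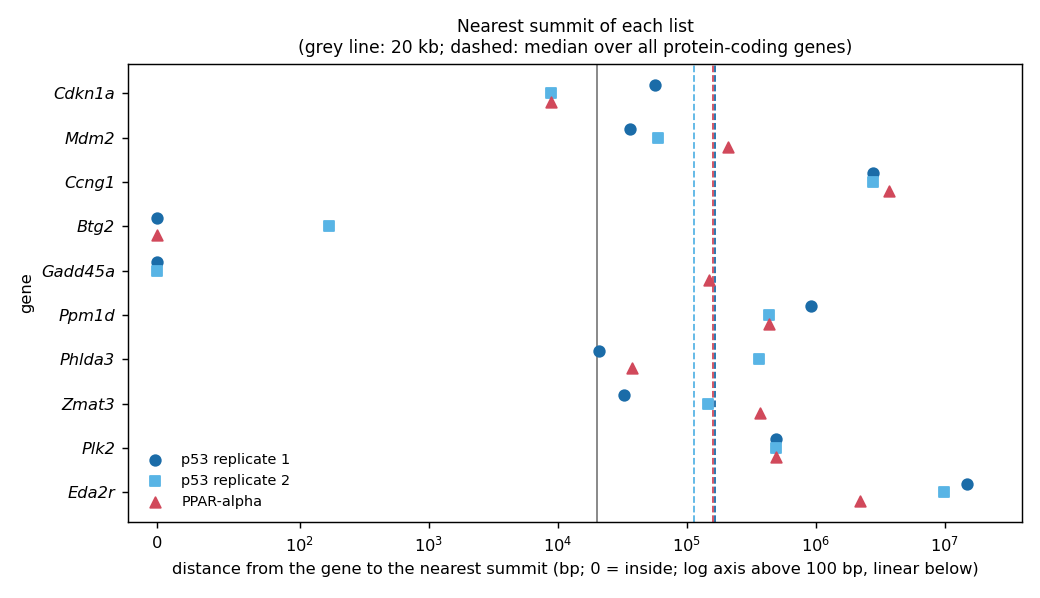
Distance from each gene to the nearest summit of each list (horizontal axis, bp, with 0 for a summit inside the gene, linear below 100 bp and logarithmic above), with 20 kb as a grey line and the median over all protein-coding genes dashed. Btg2 lies at the left in every list and Gadd45a in both p53 lists, with its PPAR-alpha distance near the dashed median, and Ccng1 and Eda2r lie at 2204901 bp or more in every list.

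As a group the members were not uniformly near or far. The median distance to the nearest summit was 46.4 kb in p53 replicate 1, against 164 kb over all protein-coding genes. In p53 replicate 2 it was 254 kb against 114 kb, and in PPAR-alpha 290 kb against 159 kb. The p53 replicates thus fell on opposite sides of the background, with 6 of 10 members at or below the median of all genes in replicate 1 and 4 of 10 in replicate 2. This did not hold among summits scoring 5 or more, where the members' median was above that of all genes in replicate 1 as well, at 927 kb against 601 kb.

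Did the p53 replicates mark the same bases at these genes? No member had a p53 summit that recurred within 100 bp in the other p53 replicate, where 5.63% of all protein-coding genes did. Of the 4 member summits of p53 replicate 1 and the 5 of p53 replicate 2, 0 matched between the replicates. Over the whole lists 20.8% of the summits of replicate 1 and 15.7% of those of replicate 2 did. With so few genes and summits, counts of 0 lie near these shares. The Gadd45a summits, 299 bp apart, counted as the same at 500 bp, where 10.6% of all genes had such a pair. A PPAR-alpha summit stood within 100 bp of 3 of the 4 and 3 of the 5, beside 17.4% and 15.6% over the whole lists. Of the 10 PPAR-alpha summits at members 6 had a summit of either p53 list within 100 bp, beside 27.1% of that list. The 3 matches of p53 replicate 1 and 2 of the 3 of replicate 2 stood at Btg2, in 1 run of summits, and the remaining one at Cdkn1a.

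**Figure D4:**
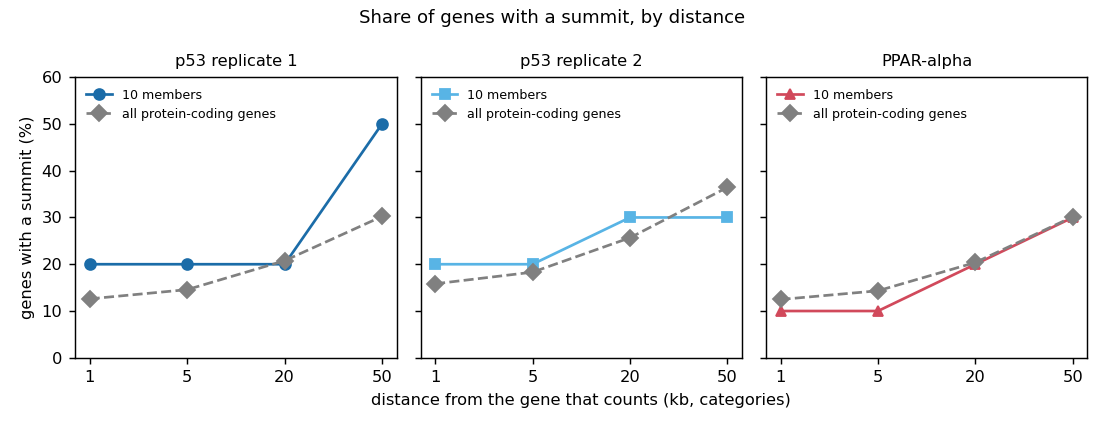
Share of genes with a summit (vertical axis, %) when 1, 5, 20 or 50 kb from the gene counts (horizontal axis), for the 10 members in colour and all protein-coding genes in grey. At 20 kb the members stand near all genes in each list. At 50 kb p53 replicate 1 reaches 50.0% of members beside 30.2% of all genes. There p53 replicate 2 stands at 30.0% beside 36.4%, and PPAR-alpha at 30.0% beside 30.2%.

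Other genes of the same network were read in the same way. Over all protein-coding genes 20.8%, 25.7% and 20.4% had a summit within 20 kb in replicates 1 and 2 of p53 and in PPAR-alpha, and 14.4% in each p53 replicate. Of 24 family relatives of the members, 7, 9 and 7 had one in these lists, and 6 had one in each p53 replicate. The 6 included Cdkn1b, which encodes the kinase inhibitor p27, with highest scores of 7.93 and 5.88. Among them were also the centriole kinase gene Plk4 with 4.70 and 8.48, and Btg1 with 3.99 and 2.97. The others were Ppm1a, Gadd45b and Mdm4, the Mdm2 partner that inhibits p53. Plk4 had its p53 summits inside the gene, at 40799975 and 40799956 of chromosome 3, and none in PPAR-alpha. Btg1, Cdkn1b and Gadd45b had a summit in all 3 lists, as did 9.88% of all genes.

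The counts of the next lists stand beside the same shares of all genes, 20.8%, 25.7% and 20.4%, and 14.4% for each p53 replicate. Of 25 other p53 targets, 10, 11 and 7 had a summit within 20 kb, and 6 had one in each p53 replicate. The 6 were Triap1, Ddit4, Trp53inp1, Pidd1, Fas and Ddb2, though the highest p53 summits near Triap1 and Ddit4 were nearest to Srsf9 and Anapc16. The highest near Pidd1 in replicate 1 was nearest to Rplp2, and the highest near Ddb2 in replicate 2 was nearest to Nr1h3, 8978 bp from Ddb2. Of 13 regulators of p53, 7, 7 and 4 had a summit, with Trp53 itself, Mdm4, Cop1, Usp7, Atr and Ep300 in each p53 replicate. The highest summit near Atr was nearest to Xrn1 in all 3 lists. Cop1, a ubiquitin ligase for p53, had scores of 6.24 and 3.62 at 244 and 158 bp from the gene. Of 16 partners of p21 in the cell cycle brake, 7, 9 and 6 had a summit, with Cdk2, Cdk6, Ccnd3, Ccne1, Rb1 and Rbl1 in each p53 replicate. The highest summits near Cdk2 were nearest to Pmel, whose span covers Cdk2, in all 3 lists. That of p53 replicate 2 also lay inside Cdk2. The highest near Cdk6 was nearest to Fam133b in p53 replicate 2 and in PPAR-alpha. Ccnd3, which encodes the cyclin D3 of thymocyte expansion, had 9 and 13 p53 summits and 8 of PPAR-alpha, the highest with a score of 32.0. These lists overlap in Mdm4, were drawn up with earlier results known, and their differences from the members were not tested.

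**Figure D5:**
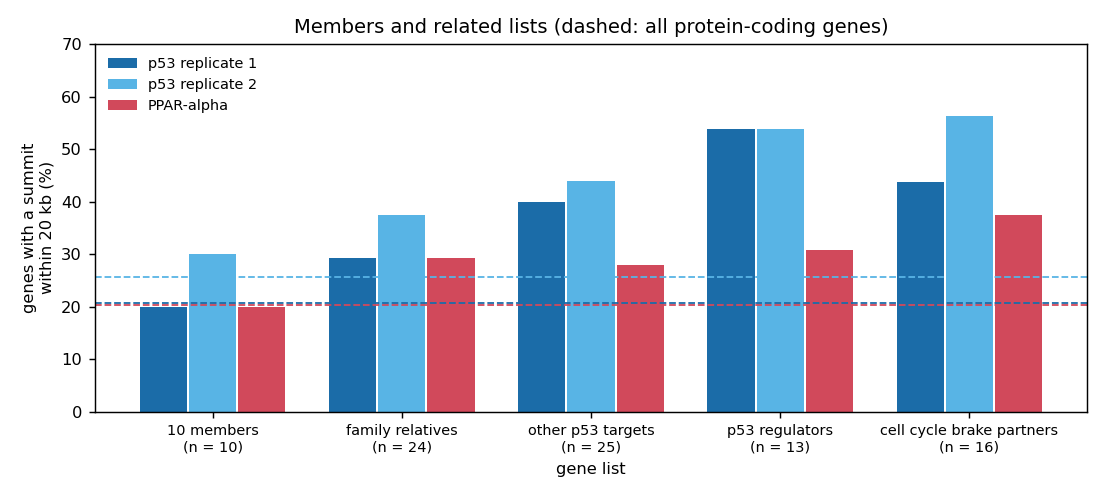
Share of genes with a summit inside or within 20 kb (vertical axis, %) for the 10 members and 4 lists of related genes (horizontal axis, with the number of genes), in replicates 1 and 2 of p53 and in PPAR-alpha. Dashed lines give all protein-coding genes at 20.8%, 25.7% and 20.4%; the members' bars stand near these lines.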

How the data were processed

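For each of the 3 ChIP libraries the authors deposited a separate list of summits with a score. The score as deposited by the authors was taken as −log10 of a q- or p-value because of the layout and range of the lists, since no label gives its unit. Per the submitters' processing notes the tools were MACS2 2.1.2, Bowtie2 2.3.4.2 and Picard 2.9.0, with no roles or settings. Not given in the sources used here are the threshold, the control and the read numbers. No list of the input library was used. Scores served only to describe and rank summits within a list.

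Although the tissue is mouse, GRCh38 is the build in those notes, so positions were checked against RefSeq starts of GRCm38.p6. Within 1 kb of a start lay 50.2%, 48.6% and 42.6% of the summits in replicates 1 and 2 of p53 and in PPAR-alpha, and 3.67% to 4.62% once all summits were moved by 5 to 50 kb. Genes, starts, strands and promoter sequences (250 bases before to 50 after the start) are from RefSeq, GRCm38.p6. All 10 members matched the gene table and 9 of them, all but Zmat3, the promoter table.

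Distance ran from the gene, 0 inside it, to the summit. A gene counted as near at 20 kb or less, and summits of different lists counted as shared at 100 bp or less. No test was made, since the lists hold no reads and PPAR-alpha has 1 library. The counting was tested on simulated data and computed with pandas 2.3.3 and numpy 2.4.6. Members, lists and distances were chosen with earlier results of these data known. Named besides the members were coding genes nearer to a listed summit and up to 6 genes of each related list with summits in both p53 replicates. Noncoding genes and the genes at nearest summits beyond 20 kb were named after their distances were seen. The alternatives were other distances, higher scores, dense runs of summits left out, the nearest gene only, 500 bp for sharing, and each p53 replicate left out.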

Additional observations from a re-analysis of the deposited data

How the results depend on the processing

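Of 41 alternative values, 27 kept close to the reported ones (for counts, within 1.5 times) and 14 moved. Some of the 27 could not move. The count of members with the same p53 summit, 0, cannot rise when shorter distances or fewer summits count. With 5 kb or 1 kb in place of 20 kb, PPAR-alpha lay near 1 member in place of 2, since Cdkn1a was lost. Each p53 list lay near 2, replicate 2 losing Cdkn1a. Of all genes 14.6%, 18.3% and 14.3% had a summit within 5 kb in replicates 1 and 2 of p53 and in PPAR-alpha. Within 1 kb these shares were 12.6%, 15.8% and 12.5%. With 50 kb, p53 replicate 1 lay near 5 members, where Mdm2, Phlda3 and Zmat3 were added, and PPAR-alpha near 3 with Phlda3. Of all genes 30.2% had a summit within 50 kb in each of these lists. In p53 replicate 2 the count stayed at 3, beside 36.4% of all genes, and for both p53 replicates at 2, beside 23.4%. Among summits scoring 5 or more, p53 replicate 1, p53 replicate 2 and both replicates lay near 0 members each, and PPAR-alpha near 2, beside 7.42%, 9.12%, 3.63% and 11.05% of all genes. Among those scoring 10 or more the counts were 0, 0 and 0, and 1 for PPAR-alpha, beside 1.25%, 1.31%, 0.557% and 3.99% of all genes. The p53 results near members thus rest on scores under 5. At 500 bp in place of 100 bp, 1 member, Gadd45a, had the same summit in both p53 replicates, beside 10.6% of all genes. The count of members with a summit in each p53 replicate was 2, beside 14.4% of all genes. With replicate 1 alone it was 2 beside 20.8%, and with replicate 2 alone 3 beside 25.7%, the counts of those lists given above. Among summits scoring 5 or more the median distance from a member to the nearest summit was 927 kb in p53 replicate 1, 868 kb in p53 replicate 2 and 833 kb in PPAR-alpha, against 601, 509 and 376 kb over all protein-coding genes. Replicate 1 thereby turned from nearer than all genes to farther, and the cause was not tested. Leaving out dense runs (5 or more others within 10 kb) or counting only the nearest gene changed no member count, though the latter lowered the share of all genes with a summit in each p53 replicate from 14.4% to 7.29%. No paired analysis was possible because PPAR-alpha has 1 library and no result comes from a test. Depth is unknown, so a gene with no summit was not called at this depth, which does not show that binding is absent.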
